A study of Rattus norvegicus with 8 samples.

Results

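The 10 genes described here carry the leukotriene pathway from the release of arachidonic acid to the receptors: Pla2g4a, Alox5ap, Alox5, Lta4h, Ltc4s, Alox12, Alox15, Ptgr1, Cysltr1 and Ltb4r. They were found as the non-control array spots whose gene name equals one of these symbols. They are 10 of 36181 gene names on the array, and 13 probes printed as 32 spots per array stand for them. RNA came from NR8383, a rat macrophage line established from the lung lavage of a normal rat and grown with part of the cells attached and part floating. The P20 group was cells at passage 20 and the P200 group was cells at passage 200, with 4 arrays each. Both groups were unmodified cells of the same line in medium with 15% heat-inactivated serum, collected 48 h after seeding, and the labels name no stimulus or treatment for either. The labels call the replicates biological and say no more about their source, so p-values measure the spread between these 4 and 4 samples of 1 line.

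Leukotrienes are lipid mediators of inflammation made from arachidonic acid, largely by macrophages, mast cells and granulocytes. Cytosolic phospholipase A2 (Pla2g4a) frees the fatty acid from membranes, the 5-lipoxygenase activating protein (Alox5ap, also called FLAP) presents it to 5-lipoxygenase (Alox5), and Alox5 turns it into leukotriene A4. From there Lta4h makes leukotriene B4, which acts on the receptor Ltb4r, and Ltc4s makes leukotriene C4, the first of the cysteinyl leukotrienes that act on Cysltr1. Alox12 and Alox15 are lipoxygenases of neighbouring branches, and Ptgr1 inactivates leukotriene B4 and prostaglandins. Alox5ap makes no product of its own but is needed for leukotriene synthesis in intact cells.

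Alox5ap was the member that differed most between the passages. Its probe rose from above background on no P20 array to above it on all 4 P200 arrays. In the processed signal it was at least 31.6-fold higher at P200, or at least 15.3-fold against a stricter background floor. On the log2 scale these bounds are 4.98 and 3.935. With the background handled in other ways, described below, the log2 change was 2.65 or 3.30, smaller than either bound. Alox5 was 1.21-fold lower at P200, a call that was lost under 8 of 19 alternative settings. Pla2g4a, Lta4h, Ptgr1 and, with only the brighter of its probes, Cysltr1 were measured on all 8 arrays and did not pass the test. Ltc4s, Alox12, Alox15 and Ltb4r were not well above background on any array.

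Which part of a transcript a probe reads matters most for the genes whose probes were dark in a group, so 4 of these probes are shown, 5′ to 3′, as the scanner files give them. Positions are those of the files on assembly rn4, all on the minus strand, and exon annotation of that assembly was not used here. The Alox5ap probe lies at chr12:6246233-6246292, the brighter of the Ltc4s probes at chr10:35788756-35788815, the Alox12 probe at chr10:57081456-57081515 and the Alox15 probe at chr10:57186202-57186261. Capitals mark the bases that are the same in the Alox12 and Alox15 probes when the first base of the former is set under base 19 of the latter, and no capitals are used in the others.
Alox5ap: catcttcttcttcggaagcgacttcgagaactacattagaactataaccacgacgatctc
Ltc4s: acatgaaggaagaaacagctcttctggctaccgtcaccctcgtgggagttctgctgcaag
Alox12: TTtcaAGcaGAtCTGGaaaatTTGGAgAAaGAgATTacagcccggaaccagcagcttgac
Alox15: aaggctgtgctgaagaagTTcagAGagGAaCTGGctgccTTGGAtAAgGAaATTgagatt
The longest run of bases that the Alox5ap probe shares with any of the 45597 other probes was 13 of its 60 bases. For Ltc4s, Alox12 and Alox15 that run was 16, 14 and 15 bases. The Alox12 and Alox15 probes were identical at 22 of the 42 bases compared, or 52.4%. The shift between them was chosen to give the highest share, and no share expected by chance was computed. The genes are relatives in sequence, which this share does not test.

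On every array 51.02% to 54.47% of spots carried the scanner software's mark for well above background, which is the sense of the term throughout, and none was saturated. Levels below are log2 processed signal relative to the 75th percentile of the array, so that 0 is that percentile, and arrays are given in the order 1 to 4. Levels of different probes are not comparable. To enter the test, a probe had to be above background on each of the 4 arrays of P20, of P200 or of both. Changes are P200 minus P20 on the log2 scale from limma, ± the moderated standard error (SE), n = 4 per group, with p-values adjusted by Benjamini-Hochberg over the 15651 genes tested. Of a list of 15 macrophage genes on the array, 13 or 14 were above background on each array, among them Cd68, Csf1r, Ptprc and Spi1, while the macrophage marker Adgre1 was on none.

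Of the 10 members, 6 entered the test, and 1 rose and 1 fell at an adjusted p under 0.05, where over all genes 5.99% rose, 5.53% fell and 11.5% did either. At an unadjusted p under 0.05 there were 3 of the 6, where over all genes 23.8% were. The groups did not overlap for 2 of the tested members, against 19.6% of all genes: Alox5ap was higher on all P200 arrays, as were 9.49% of genes, and Alox5 was lower, as were 10.1%. Alox5ap entered only through its P200 arrays, so that a difference there follows in part from the filter, and these counts describe the members and support nothing further. The median change over all genes was -0.0003.

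**Figure D1:**
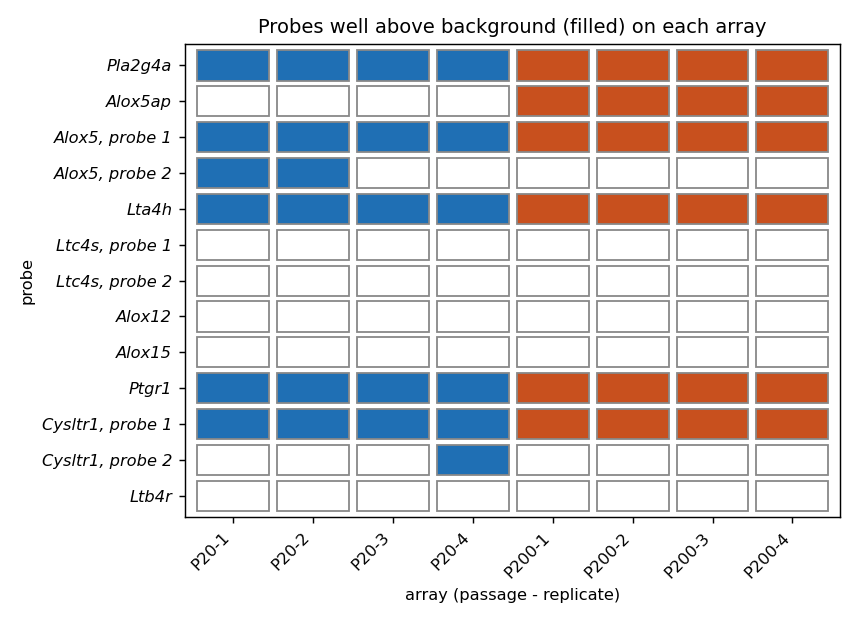
Detection of the 13 probes of the 10 members, with 1 column per array (P20 blue, P200 orange) and 1 row per probe; a filled box is a probe well above background. The Alox5ap boxes are empty on the 4 P20 arrays and filled on the 4 P200 arrays, and the boxes of Ltc4s, Alox12, Alox15 and Ltb4r are empty on all 8.

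Alox5ap, the partner protein without which Alox5 finds little substrate in the cell, was read by 1 spot per array. Its processed intensity was 4.02, 3.98, 5.36 and 7.13 on the P20 arrays and 546, 306, 387 and 235 on the P200 arrays. All P20 arrays were dark and all P200 arrays bright, with no overlap. Before any processing, the median pixel of the spot was 40, 35.5, 48.5 and 52 at P20, over a local background of 28, 31, 31 and 33. At P200 it was 616, 338, 423 and 284, over 30, 29, 32 and 33. The local background was therefore alike in the groups and the gap lay in the spot itself.

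On the log2 scale Alox5ap stood at -6.35, -6.32, -5.66 and -5.42 on the P20 arrays and at 0.56, 0.22, 0.34 and 0.25 on the P200 arrays. The P200 values lay close together, with an SD of 0.16, and the P20 values, all below background, spread with an SD of 0.47. Because a dark probe has only an upper limit, the fold is given against the lowest signal well above background on each P20 array, which averaged -4.64, and the P200 mean of 0.34 was at least 31.6-fold above it. With the 1st percentile of such signals as the floor, it was at least 15.3-fold above. The adjusted p from limma was 2.33e-07, and the fitted log2 change, 6.28 ± 0.21, rests on the dark values. With the background of the spots modelled by normexp at an offset of 50, which by its construction shrinks changes of dim probes, the log2 change was 2.65 (adjusted p 8.83e-08), and on the deposited spot medians it was 3.30 (adjusted p 4.01e-07). Both are smaller than the log2 bounds of 4.98 and 3.935, so the bounds hold for the processed signal only. Over the 18 alternatives under which it was tested, the adjusted p was at most 5.23e-05. Arrays of both passages stood in each row of the slide. Against the same floor, the P200 arrays were at least 41.7-fold higher within row 1, with 1 P20 and 3 P200 arrays, and at least 33.0-fold within row 2, with 3 and 1. An arm of 1 array gives no test. In RNA from whole cultures, more cells with the transcript and more transcript per cell cannot be told apart.

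A change from no P20 array to all P200 arrays above background, with a call, was seen for 42 of the 15651 genes tested, or 0.268%. The genes with the most similar profile were taken as the 5 with the highest Pearson r with the Alox5ap probe over the 8 arrays. These were Magea14 (r = 0.998), a gene of the melanoma antigen family, Spocd1 (0.998), known from germline DNA methylation, Fbxl16 (0.997), which codes for an F-box protein, the transcript ENSRNOT00000072173 (0.997), and Lsp1 (0.997), a leukocyte actin-binding protein. Their points fall into the same passage groups, so r reflects a step between passages with little spread inside them, and it is given as a description. Magea14 rose by 2.05 ± 0.07, Spocd1 by 3.43 ± 0.07 and Lsp1 by 2.06 ± 0.08, each above background on all 8 arrays (limma, adjusted p 3.5e-07, 2.6e-08 and 5.33e-07). Fbxl16, like Alox5ap, was above background on no P20 array and on all P200 arrays, at least 8.52-fold higher. Its log2 change was 1.39 under normexp and 1.83 on the spot medians, both below that bound. Under normexp Spocd1 rose by 2.88, more than the 2.65 of Alox5ap.

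Alox5ap is also made by mast cells and granulocytes, so markers of these and other cells were read on the same arrays. Of 9 mast cell and basophil genes, 1 to 3 were above background on a P20 array and 1 or 2 on a P200 array. Hdc, the histidine decarboxylase gene, was above it on all 8 arrays, Mcpt1 on 2 of each passage, Ms4a2 and Tpsb2 on 1 P20 array each and Cpa3 on 1 P200 array. Fcer1a, Tpsab1, Cma1 and Kit were above it on none. The summed signal of the list was 0.461 to 0.916 times the 75th percentile at P20 and 0.447 to 0.805 times at P200, so the groups overlapped. Of 11 neutrophil and eosinophil genes, 10 were above background on no array, Mpo, Elane, Epx, S100a8 and S100a9 among them. The remaining one, the antimicrobial peptide gene Camp, fell by 1.13 on the log2 scale (limma, adjusted p 5.16e-05). The sum of the list went from between 7.63 and 8.69 at P20 to between 3.44 and 4.39 at P200. This sum mainly follows Camp, with a mean of 3.00 at P20 and 1.87 at P200 on the log2 scale, and adds no separate result. Of the lymphocyte genes, Ms4a1 was above background on no array, Cd3d was on all 8, and Nkg7, a granule protein of cytotoxic cells, rose by 1.49 (adjusted p 0.00024). The lymphocyte sum was 0.601 to 1.32 at P20 and 0.972 to 1.25 at P200, and the part of these genes in the Alox5ap result was not tested. The sum of the 15 macrophage genes was 931 to 1130 at P20 and 920.1 to 965 at P200. It mainly follows Lyz2, the brightest of them, with a mean of 9.47 at P20 and 9.26 at P200 on the log2 scale. Cd68, the next brightest, had 6.88 and 7.02. Of the 13 macrophage genes tested, 3 fell (Itgam, Siglec5 and Cd14) and 0 rose, beside 5.53% and 5.99% of all genes. Of 7 lung epithelial genes 5 were above background on no array. Of 6 fibroblast genes, Dcn and Col1a2 were above background on all 8 arrays and the other 4 on none. Of 5 endothelial genes, Vwf, Pecam1 and Cdh5 were above it on all 8, and Kdr and Tek on none. Dcn had a mean of 2.68 at P20 and 2.89 at P200, and Vwf one of 3.48 and 3.64. These 2 fibroblast and 3 endothelial genes were tested and did not pass.

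**Figure D2:**
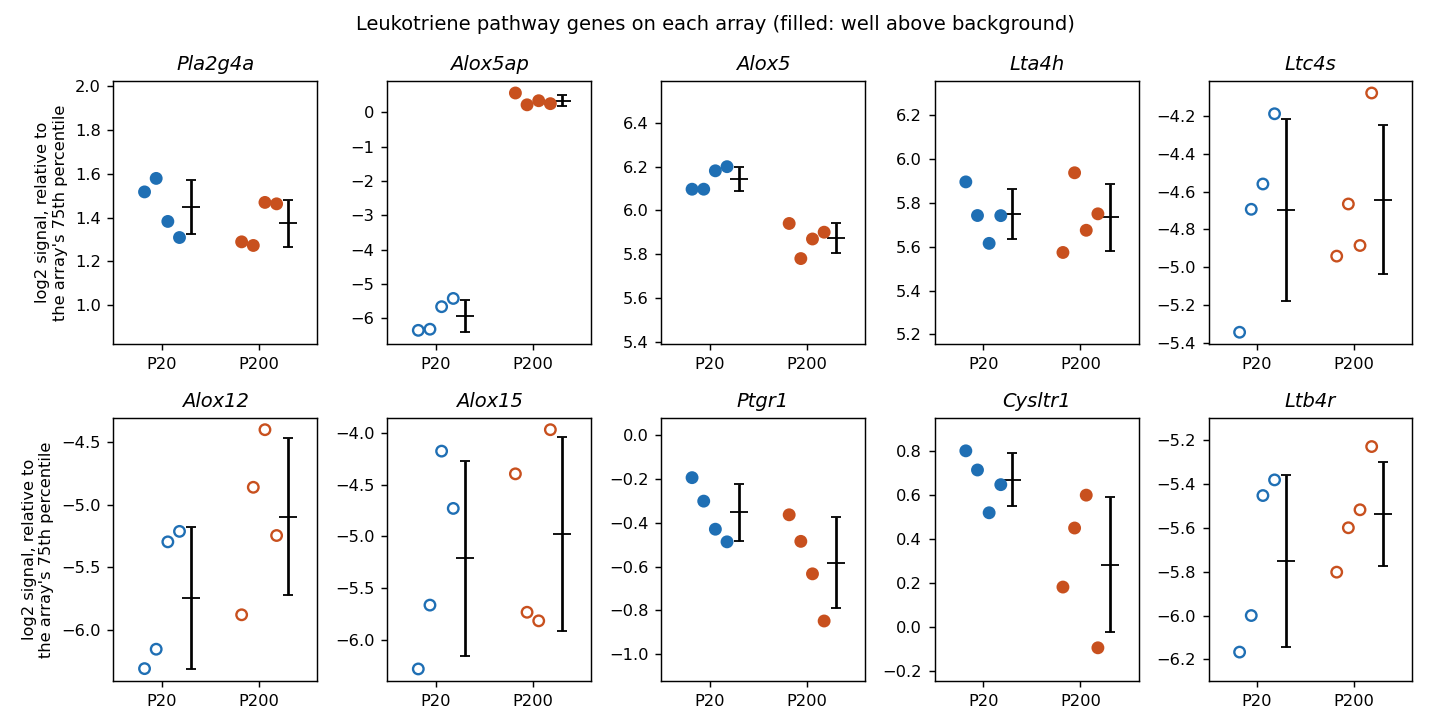
Log2 processed signal relative to the array's 75th percentile for the 10 members, 1 panel per gene with its own axis, P20 in blue and P200 in orange. Each point is an array, filled where the probe was well above background and open where it was not, and the bar is the mean ± SD of 4 arrays; Alox5ap spans over 6 log2 units, while the Alox5 groups are about 0.27 apart.

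Alox5, the enzyme that Alox5ap serves, was read by a probe at chr4:152610369-152610428, printed on 2 spots per array. It stood at 6.10, 6.10, 6.18 and 6.20 on the P20 arrays and at 5.94, 5.78, 5.87 and 5.90 on the P200 arrays. Every P20 array lay above every P200 array, by a narrow margin. The log2 change was -0.27 ± 0.06 (95% confidence interval -0.41 to -0.13), or 1.21-fold lower at P200, with an adjusted p of 0.0227 from limma. Within rows 1 and 2 of the slide the difference was -0.25 and -0.22. This call was not firm: it held under 11 of 19 alternative settings, and the change was lower at P200 under all 19. It was lost with the slide row as a block (-0.23, adjusted p 0.0981), and without P20 replicate 3 (adjusted p 0.0739), P20 replicate 4 (0.0653), P200 replicate 2 (0.061) or P200 replicate 3 (0.0651). Over all alternatives its adjusted p from limma ran from 0.0135 to 1. A second Alox5 probe, designed to the predicted transcript XM_006237140, was above background on P20 arrays 1 and 2 only and did not enter the test. Its values were -3.22, -3.71, -3.52 and -3.98 at P20 and -3.73, -3.87, -3.90 and -3.39 at P200, and the groups overlapped.

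Pla2g4a, the phospholipase that supplies the pathway, stood at 1.52, 1.58, 1.38 and 1.31 at P20 and at 1.29, 1.27, 1.47 and 1.46 at P200 (probe at chr13:64146152-64146211). The groups overlapped, and the change was -0.07 ± 0.08 (95% confidence interval -0.26 to 0.12, limma adjusted p 0.669).

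Lta4h, the hydrolase that makes leukotriene B4, was read by 10 spots per array (probe at chr7:30514949-30515007), whose SD within an array was 0.025 to 0.176 on the log2 scale. It stood at 5.90, 5.74, 5.62 and 5.74 at P20 and at 5.57, 5.94, 5.67 and 5.75 at P200. Both the highest and the lowest array were P200 arrays, and the change was -0.01 ± 0.09 (95% confidence interval -0.23 to 0.20, limma adjusted p 0.948). Changes of more than 0.23 in either direction lie outside this interval.

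Ltc4s, the synthase that opens the cysteinyl branch and a relative of Alox5ap, was not well above background on any array with either of its 2 probes. The brighter one gave -5.34, -4.69, -4.56 and -4.19 at P20 and -4.94, -4.67, -4.89 and -4.08 at P200, values with no order since all lie in the background. Its processed intensity was 8.08 to 16.8 at P20 and 10.4 to 12.0 at P200, and no fold is given.

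The lipoxygenases of the neighbouring branches were as dark. Alox12 had a processed intensity of 4.15 to 8.24 at P20 and 5.20 to 14.5 at P200, and Alox15 one of 4.23 to 15.0 and 4.95 to 17.5. Neither probe was well above background on any array, so a signal above the background of these arrays was not detected for either enzyme at either passage.

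Cysltr1, the receptor for cysteinyl leukotrienes, stood at 0.80, 0.71, 0.52 and 0.65 at P20 and at 0.18, 0.45, 0.60 and -0.10 at P200 (probe at chrX:94798793-94798852). The P200 arrays spread more widely than the P20 arrays, with SDs of 0.31 and 0.12, and P200 array 3 lay inside the P20 range. The change was -0.39 ± 0.15 (95% confidence interval -0.72 to -0.05) with an unadjusted p of 0.0275 and an adjusted p of 0.143 from limma, so it did not pass. The tested probe was designed to a predicted transcript. A second Cysltr1 probe, designed to the curated transcript, was above background on P20 array 4 only and did not enter the test. The Cysltr1 values therefore rest on the probe to the predicted transcript alone. Ltb4r, a receptor for leukotriene B4, was above background on no array, with a processed intensity of 4.57 to 7.33 at P20 and 5.25 to 6.68 at P200.

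Ptgr1, the reductase that inactivates leukotriene B4, was read by 10 spots per array (probe at chr5:77010948-77011007), with an SD within an array of 0.0564 to 0.160. It stood at -0.19, -0.30, -0.43 and -0.49 at P20 and at -0.36, -0.48, -0.63 and -0.85 at P200. The groups overlapped, with P200 array 4 the lowest. The change was -0.23 ± 0.11 (95% confidence interval -0.49 to 0.03, limma adjusted p 0.274), and it was -0.46 within row 1 of the slide and 0.04 within row 2.

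A wider list of 47 genes of arachidonic acid handling was set beside the members: other phospholipases, lipoxygenases and receptors, enzymes that convert or break down leukotrienes, exporters and kinases that act on Alox5. All 47 were on the array and 29 were tested. Of these, 3 rose, 3 fell and 23 did not pass, beside 5.99% and 5.53% of all genes that rose and fell. An unadjusted p under 0.05 was found for 11 of the 29, beside 23.8% of all genes, and the median change was 0.0077 against -0.0003 over all genes. A further 17 were above background on no array. Among them were the receptors Cysltr2, Ltb4r2 and Oxgr1, the lipoxygenases Alox12e, Alox15b and Aloxe3, and Ggt1, Ggt5 and Dpep1, which trim leukotriene C4 to its later forms. Other genes of these classes, Gpr17, Alox12b and Dpep2, were above background on all 8 arrays and did not pass. Dpep2 had a mean of 1.57 at P20 and 1.25 at P200. Its groups did not overlap, and it changed by -0.32 ± 0.09 (limma, adjusted p 0.0583).

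The largest rise of the wider list was that of Pla2g2d, a secreted phospholipase A2. It stood at 2.41, 2.83, 2.37 and 2.54 at P20 and at 3.35, 3.51, 3.72 and 3.54 at P200. Every P200 array lay above every P20 array, and the change was 0.99 ± 0.12, or 1.99-fold (limma, adjusted p 0.000784), past the threshold under all 19 alternatives. Pla2g6, a calcium-independent phospholipase, rose by 0.34 ± 0.07 (adjusted p 0.0176), from 2.15 to 2.36 at P20 to 2.48 to 2.70 at P200. That call was lost under 6 of 19 alternatives, including those without P20 replicate 1, P20 replicate 2 or P200 replicate 3 (adjusted p 0.0552, 0.0518 and 0.0553, over a range of 0.0165 to 1).

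The 3 genes of the list that fell moved little. Mapkapk2, a kinase that phosphorylates Alox5, changed by -0.23 ± 0.06 (limma, adjusted p 0.0468). Its call was lost under 11 of 19 alternatives, including those without any of the P20 replicates or without P200 replicate 2 or 3, with adjusted p of 0.0662 to 0.127 in these. Cyp4f5, of the cytochrome P450 family whose members hydroxylate leukotriene B4, changed by -0.50 ± 0.13 (adjusted p 0.0413). It was above background on 4 P20 and 3 P200 arrays, entered through P20 alone, and its call was lost under 13 of 18 alternatives, with a change of -0.10 under normexp and -0.12 on the spot medians. These include the fits without any of the P20 replicates or without P200 replicate 2 or 4 (adjusted p 0.0641 to 0.0996). The third was Mgst3, described with its family.

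**Figure D3:**
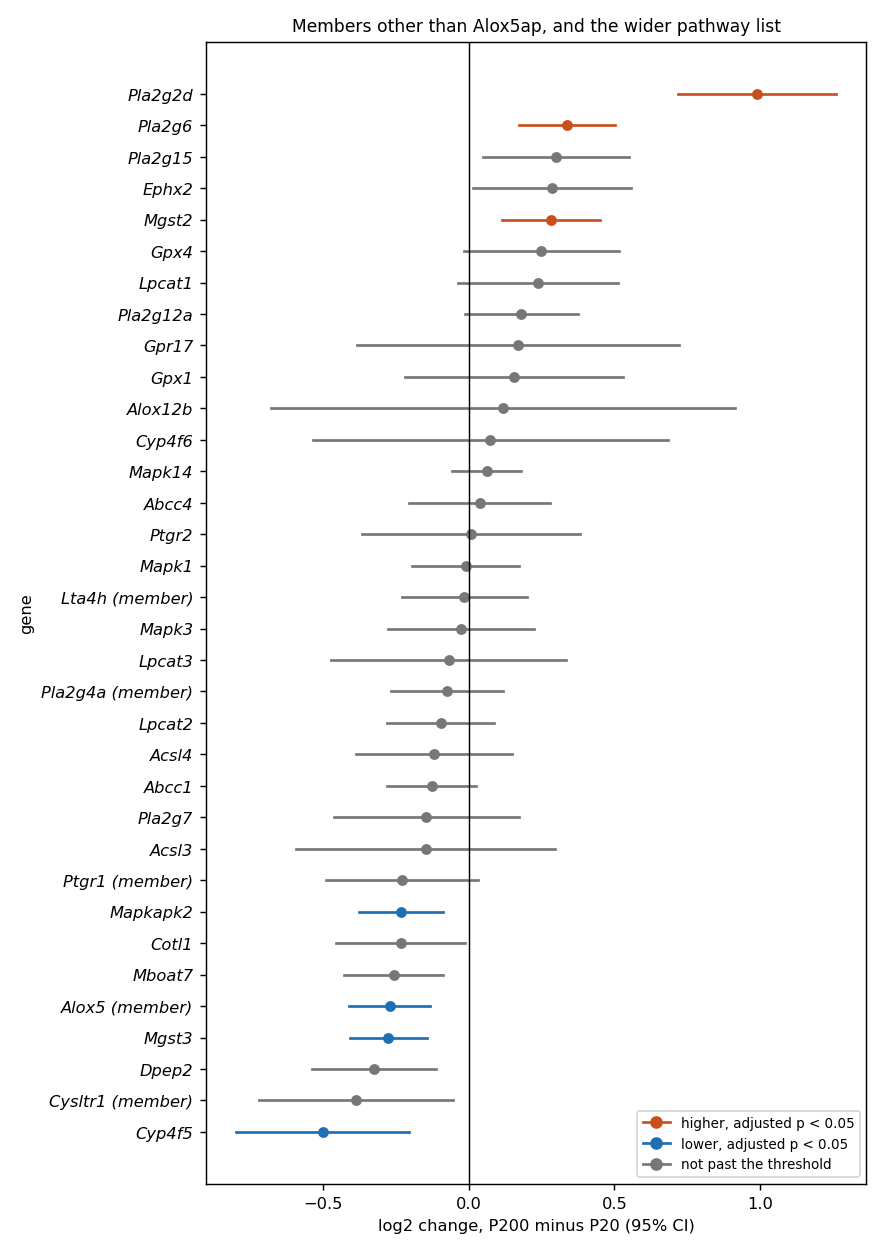
Log2 change, P200 minus P20, with its 95% confidence interval for the 5 tested members other than Alox5ap and the 29 tested genes of the wider list, ordered by size. Orange and blue are genes past an adjusted p of 0.05, and Pla2g2d is highest at 0.99 while the others lie between -0.50 and 0.34.

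Alox5ap belongs to a family of small membrane proteins of glutathione and eicosanoid metabolism (MAPEG) with Ltc4s, Mgst1, Mgst2, Mgst3 and Ptges. Mgst2, which can also make leukotriene C4, stood at 5.23, 5.11, 5.03 and 4.98 at P20 and at 5.30, 5.35, 5.35 and 5.47 at P200. The groups did not overlap, and it rose by 0.28 ± 0.07 (limma, adjusted p 0.0426). Mgst3, a microsomal glutathione transferase and peroxidase, stood at 3.77, 3.74, 3.63 and 3.78 at P20 and at 3.45, 3.42, 3.46 and 3.48 at P200. It fell by 0.28 on the log2 scale (SE 0.06, adjusted p 0.0163), with no overlap. The Mgst2 call was lost under 13 of 19 alternatives, among them 7 of the 8 that left out 1 array, all but the one without P20 replicate 1 (adjusted p 0.0556 to 0.123 in the 7). The Mgst3 call was lost under 5, among them those without P20 replicate 1 (adjusted p 0.0569) and P20 replicate 4 (0.0507), over a range of 0.00874 to 1. Mgst1, the main glutathione transferase of the group, changed by 0.02 ± 0.09 (adjusted p 0.913). Ltc4s and Ptges, the inducible prostaglandin E synthase, were above background on no array. Of the 4 tested genes of the family, Alox5ap included, 2 rose and 1 fell, beside 5.99% and 5.53% of all genes.

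The cyclooxygenase branch uses the same arachidonic acid. Of 18 prostanoid genes 10 were tested, and 2 rose and 1 fell, beside 5.99% and 5.53% of all genes. Their median change was 0.03. Ptger4, a receptor for prostaglandin E2, rose by 1.40 ± 0.15 (limma, adjusted p 0.000449), from between -3.36 and -2.90 on P20 arrays, 3 of them above background, to between -2.03 and -1.35 at P200. Its change was 0.65 under normexp and 0.82 on the spot medians, past the threshold in both. Ptgs1, the constitutive cyclooxygenase, rose by 0.77 ± 0.18 (adjusted p 0.0268). It stood at 1.81, 1.97, 1.61 and 1.81 at P20 and at 2.06, 2.84, 2.46 and 2.90 at P200, and its call was lost under 9 of 19 alternatives, 6 of which left out 1 array (P20 replicate 1, 3 or 4, or P200 replicate 2, 3 or 4, adjusted p 0.0559 to 0.0814). Tbxa2r, the thromboxane receptor, changed by -0.48 ± 0.13 (adjusted p 0.0456). Its call was lost under 13 of 19, including those without P20 replicate 1, 2 or 4 or P200 replicate 1, 2 or 4 (adjusted p 0.0679 to 0.117), and the change was -0.23 under normexp. Ptgs2, the inducible cyclooxygenase, was above background on no array.

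Among 19 genes of transcription factors and DNA methylation enzymes named in the control of lipoxygenase genes, 16 were tested, and 2 rose and 2 fell, beside 5.99% and 5.53% of all genes, with a median change of 0.19. Egr1, an immediate early transcription factor, stood at -0.07, 0.03, -0.52 and 0.05 at P20 and at -2.65, -2.19, -2.68 and -2.05 at P200. The groups were far apart, and it fell by 2.26 on the log2 scale (SE 0.18, limma, adjusted p 5.65e-05), or by 1.41 under normexp. Dnmt3b, a de novo DNA methyltransferase, rose by 1.09 ± 0.12 (adjusted p 0.000397), from -2.92, -2.90, -3.29 and -2.75 to -1.89, -1.73, -1.99 and -1.92, or by 0.53 under normexp. Cebpe, a myeloid transcription factor, rose by 0.29 ± 0.06 (adjusted p 0.0103), a call lost under 2 of 19 alternatives, the array median (adjusted p 1) and no filter on dim probes (0.149), over a range of 0.00995 to 1. Nfkb1, a subunit of NF-kappaB, changed by -0.31 ± 0.07 (adjusted p 0.0163), a call lost under 8 of 19 alternatives, including those without P20 replicate 1, P20 replicate 2 or P200 replicate 3 (adjusted p 0.0501, 0.052 and 0.055, over a range of 0.00945 to 1). Spi1, which codes for the myeloid factor PU.1, changed by -0.05 ± 0.08 (adjusted p 0.76), and Cebpa, Smad3 and Dnmt1 were above background on no array.

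The genes next to the members that passed the test were read in the order of the RefSeq table for assembly GRCr8, with the 5 nearest tested genes on each side. Around Alox5ap on chromosome 12, the nearest on either side were Hsph1, a heat shock protein gene (0.34 ± 0.13, limma, adjusted p 0.149), and Uspl1, which codes for a SUMO protease (0.20 ± 0.09, adjusted p 0.199). Of the 10 neighbours only Slc46a3, a lysosomal transporter gene and the farthest of them on its side, passed, with a rise of 0.47 ± 0.08 (adjusted p 0.00639), where 11.5% of all genes passed. Its adjusted p rose past the threshold when all probes were tested (0.0681) or the array median was the scale (0.967), over a range of 0.00515 to 0.967. The other 9 changed by -0.15 to 0.34, and among them only Hmgb1 (-0.15 ± 0.18) was lower at P200. Besides Slc46a3 (unadjusted p 0.000325), Fry, B3glct, Hsph1, Uspl1 and Slc7a1 were each higher at P200 with an unadjusted p of 0.0235 to 0.0457 from limma. The rest of the 10 neighbours had an unadjusted p above 0.05. Over all genes, 23.8% had an unadjusted p under 0.05 in either direction, and the share for rises alone was not computed. Around Alox5 on chromosome 4, Tmem72 was the only one of 10 to pass: it was above background on all 4 P20 arrays and on no P200 array, at least 4.15-fold lower at P200 (adjusted p 1.17e-05). It entered the test through P20 alone, and its log2 change was -0.79 under normexp and -0.93 on the spot medians, both smaller than that bound. The nearest tested genes there were Marchf8 (-0.11 ± 0.07, adjusted p 0.39) and Zfp422 (0.02 ± 0.06, adjusted p 0.791).

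**Figure D4:**
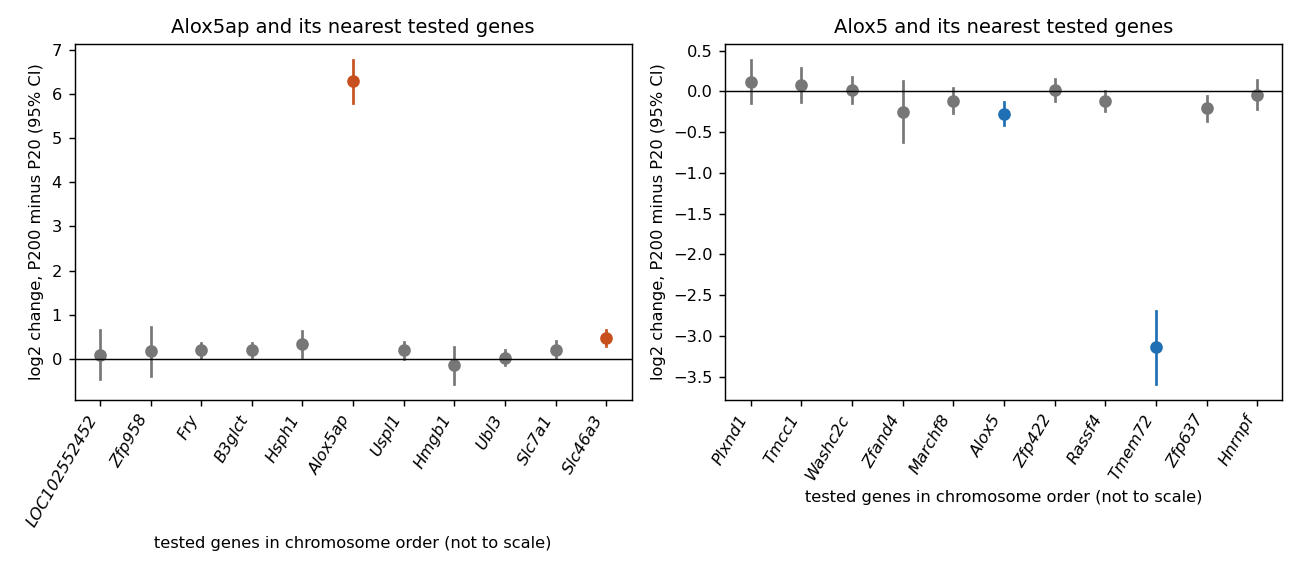
Log2 change, P200 minus P20, with its 95% confidence interval for Alox5ap and Alox5 and the 5 nearest tested genes on each side, in chromosome order and not to scale; orange rose and blue fell at an adjusted p under 0.05. Alox5ap at 6.28 and Tmem72 at -3.14 are fitted values that rest on dark arrays of 1 passage, and the other neighbours lie between -0.25 and 0.47.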

How the data were processed

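RNA of 8 NR8383 samples was hybridised to 1-colour (Cy3) Agilent rat arrays from 100 ng each. Spot intensity on a linear scale was taken from the deposited scanner output, made with Agilent Feature Extraction 11.0.1.1 per the submitters' processing notes, which per the file headers subtracts background within an array; no normalization between arrays is recorded there. The values in the deposited series matrix are unprocessed medians of the spots' pixels, and its P200 columns are numbered differently from the scanner files, whose numbers are used here. All arrays lay on 1 slide read in 1 scan, per the file headers.

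Of 62976 spots, 4259 controls and outlier spots were left out. Processed signal was taken to log2, spots of a probe were averaged, and the 75th percentile of the array over 45598 probes, less 84 without a usable spot, was subtracted. The filter on dim probes left 19458 probes, and the brightest probe of a gene stood for it (15651 genes). Names came from RefSeq GRCr8 by accession (21109 probes) or by symbol or synonym (7108), and 17381 kept the name in the files. P200 and P20 were compared with limma 3.58.1 in R 4.3.3 (lmFit and eBayes, no covariate, two-sided). The fits were tested on simulated data. The number of arrays limits the precision.

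The members and lists were chosen with earlier results of these data known. The genes named are the 10 members, every gene past the test of the wider, regulator and MAPEG lists, the 5 most like Alox5ap and the neighbours of called members. The prostanoid genes and further list members were named after their values were seen. Alternatives changed the scaling, background, source of values, dim filter, probe choice, outlier spots, slide row, replicate block and single arrays, and a 75th percentile over all spots was added after seeing the data.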

Additional observations from a re-analysis of the deposited data

How the results depend on the processing

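No called value changed its direction. Lta4h, which did not pass, ran from -0.12 to 0.04 and the median of the wider list from -0.04 to 0.07, so neither has a settled sign. Over all genes, 286 rose and 367 fell with the array median as the scale, where every gene had an SE of 0.26, and 389 rose and 423 fell with no filter on dim probes, where 36121 genes were tested; leaving out 1 array gave 665 to 866 and 601 to 829. The count of members higher at P200 was 0 when probes had to be above background on all 8 arrays, since Alox5ap was then not tested, and 1 otherwise. The count of members lower was 0 with the array median, no filter, the slide row as a block and the replicate block, and 0 to 1 without 1 array. Alox5 changed by -0.31 with the array median (adjusted p 1), -0.27 with no filter (0.227) and -0.23 with the slide row, and by -0.29 to -0.24 without 1 array. The wider list had 1 higher with the array median, no filter and the slide row, and 0, 0 and 1 lower; without 1 array it had 1 to 3 higher and 0 to 4 lower. The bound on Alox5ap, from the processed signal, was at least 15.3-fold with the 1st percentile of signals above background as the floor, and 30.6 to 30.8 under other scalings. Why these values moved was not tested beyond what the settings themselves change.

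Replicate numbers are shared by the groups. By the scanner file numbers, the deviations of same-numbered arrays correlated at 0.02, 0.13, -0.00 and 0.28. By the series matrix numbers, the pairs of P20 arrays 1 to 4 correlated at 0.22, 0.07, 0.10 and -0.11. Which numbering is right is not known, and the numbers were not taken to pair the samples. The replicate block used the scanner file numbers. With the replicate block 785 genes rose and 718 fell, Alox5 was at -0.27 (adjusted p 0.0604), members lower and wider-list genes lower came to 0, and Alox5ap kept its call (adjusted p 5.23e-05). Not every array correlated best with its own number.

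Signal over background limits Alox5ap at P20 and Ltc4s, Alox12, Alox15 and Ltb4r throughout: a change below the background cannot be seen there. Lta4h, Pla2g4a, Cysltr1 and Ptgr1 stayed short of the threshold under all 19 alternatives, with the lowest adjusted p, 0.0703, for Cysltr1.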

Other observations

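RefSeq promoter windows on assembly GRCr8, from 250 bases before to 50 after the gene start, were matched for 6 of the 10 members: Alox5, Lta4h, Ltc4s, Alox12, Pla2g4a and Ltb4r. Alox5ap, Alox15, Cysltr1 and Ptgr1 were not analysed here. On either strand, the GC box letters GGGCGG occurred in the windows of Alox5 (1 match), Lta4h (1) and Alox12 (3), where 33.1% of all 33469 windows hold them. TATAAA occurred once, in the window of Pla2g4a, against 14.2% of all windows. GAGGAA, the core of sites of the myeloid factor PU.1, occurred in the windows of Lta4h (1) and Ltb4r (2), against 27.6%. The C/EBP letters TTGCNNAA, 1 STAT pattern and 1 NF-kappaB spelling were found in none of the 6 windows, against 10.6%, 7.3% and 0.1% of all. The STAT pattern was TTC and GAA with a gap of 1 fixed length, and the NF-kappaB spelling allowed no variable base. Other forms of STAT and NF-kappaB sites were not searched, so their absence from these windows is not shown. Matches of letters are a description of these windows and say nothing of binding in these cells.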
